A study of Homo sapiens with 4 samples.

Results

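The 7 genes that encode the subunits of the human NMDA receptor, GRIN1, GRIN2A, GRIN2B, GRIN2C, GRIN2D, GRIN3A and GRIN3B, were taken by symbol from 28307 gene symbols measured in excitatory neurons made from induced pluripotent stem cells, and all 7 were found. The NMDA receptor is an ion channel that opens when glutamate and a co-agonist, glycine or D-serine, are bound and the membrane is depolarised, and it lets calcium into the postsynaptic cell. Each receptor holds GluN1 subunits, made from GRIN1, together with GluN2 or GluN3 subunits, whose kind sets the speed, the magnesium block and the calcium permeability of the channel. In the rodent brain GluN2B, GluN2D and GluN3A prevail before and shortly after birth, and GluN2A and GluN2C rise later, so the balance of these genes is used as a sign of how mature a neuron is.

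The series holds 4 bulk polyA RNA sequencing libraries (paired-end, 75 bp) of i3N-WTC11 neurons, 2 per group. The neurons of the CRISPRi group were given, by lentivirus, guide RNAs against 1 chromosome 11 copy of the MIR transposable element family, and those of the control group the empty guide vector. According to the protocol, which is the same for both groups, the cells carried dCas9-KRAB, a dead Cas9 fused to a repressor domain, driven by the CAG promoter from an intron of CLYBL. Virus (multiplicity of infection about 3) was added to neurons differentiated for 2 weeks, puromycin at 0.5 μg/mL was kept on for 4 days, and cells were collected 7 days after the virus. All neurons came from 1 iPSC line, WTC11. The question of the comparison was whether silencing the element changed the transcriptome; here it is asked of the NMDA receptor genes.

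CRISPRi replicates 1 and 2 held 44839748 and 41560282 counts, and control replicates 1 and 2 held 944993 and 39325038; pairs of values below keep this order of replicates. Control replicate 1 was thus 41.6 times shallower than the next library, and 1 count in it equals 1.06 CPM (a count divided by its library's total and brought to one scale for all libraries). The 10 pan-neuronal marker genes all had counts in every library and summed to 20706 and 21504 CPM in CRISPRi neurons, against 18123 and 20831 CPM in control neurons. The 8 markers of dividing cells summed to 46.2 and 50.3 CPM in CRISPRi neurons, against 333 and 49.9 CPM in control neurons, so control replicate 1 stood apart in more than depth. Glutamatergic markers (8 genes) summed to 721 and 717 CPM in CRISPRi neurons, against 646 and 716 CPM in control neurons. Astrocyte markers (6 genes) summed to 1.05 and 1.25 CPM in CRISPRi neurons, against 7.41 and 0.915 CPM in control neurons, where control replicate 1 had no gene above 4 counts and GFAP, AQP4 and ALDH1L1 at 0. The shares and fold changes of the NMDA receptor genes are therefore also given without control replicate 1.

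The stretch shown here for 5 of the 7 genes encodes the end of the third membrane helix with the Lurcher motif, the most conserved part of the ionotropic glutamate receptor pore, where the gate lies. It shows how close these members are in sequence, which bears on whether reads could be placed on the wrong one. Capitals mark the 27 bases of the motif; the flanks are in lower case. All are coding sequence on GRCh38 from GENCODE release 29, 5′ to 3′ on the strand of the gene.
GRIN1: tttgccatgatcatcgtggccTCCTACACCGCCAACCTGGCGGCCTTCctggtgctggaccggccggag
GRIN2C: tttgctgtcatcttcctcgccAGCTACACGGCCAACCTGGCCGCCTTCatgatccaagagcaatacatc
GRIN2D: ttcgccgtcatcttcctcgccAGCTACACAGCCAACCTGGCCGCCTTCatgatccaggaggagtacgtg
GRIN3A: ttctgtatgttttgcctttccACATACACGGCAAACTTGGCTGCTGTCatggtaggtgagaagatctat
GRIN3B: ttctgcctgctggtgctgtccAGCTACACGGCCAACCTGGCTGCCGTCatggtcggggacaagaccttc

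The stretch of GRIN1 lies at chr9:137162641-137162709 (plus strand), in exon 15. Those of GRIN2C and GRIN2D lie at chr17:74847338-74847406 (minus) and chr19:48419716-48419784 (plus), in exon 9 of each. Those of GRIN3A and GRIN3B lie at chr9:101670090-101670158 (minus) and chr19:1005455-1005523 (plus), in exon 3 of each. Exons are numbered within the transcript of the longest coding sequence.

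Between GRIN2C and GRIN2D, 61 of the 69 bases were identical. GRIN1 shared 45 bases with GRIN2C and 48 with GRIN2D, and GRIN3A shared 40 with each of them. GRIN3A and GRIN3B shared 50 bases with each other. The 9 encoded residues of the motif were the same in GRIN1, GRIN2C and GRIN2D, with 8 of 9 the same in GRIN3B and 7 of 9 in GRIN3A. Even so, no stretch of 75 bases in the transcript of any member occurred exactly in that of another member. In GENCODE 2 non-coding genes on the opposite strand overlap exons of GRIN2B and hold 590 of its 30281 stretches of 75 bases (1.95%). Without a stated strand setting, reads from there cannot be told apart from those of GRIN2B.

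The genes differ in the untranslated part of their mRNA, which matters for any level set between them. The transcript of GRIN2B is 30355 bases long, of which 4452 are coding before the stop codon and 85.3% is untranslated, nearly all of it after the stop codon (25446 bases). GRIN2A has 14450 bases with 4392 coding, and GRIN3A 7770 with 3345 coding. GRIN2D (5093 bases, 4008 coding), GRIN2C (4261, 3699 coding), GRIN1 (3751, 2829 coding) and GRIN3B (3281, 3129 coding) have shorter untranslated parts.

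GRIN2D and GRIN3A, subunits of the early kind, led the family in these neurons, per kilobase as well as by counts. In these bulk libraries fewer cells that express a gene and less RNA per cell cannot be told apart. GRIN2D, whose subunit gives slow channels with weak magnesium block, had 3561 and 3317 counts in CRISPRi neurons, against 63 and 3109 in control neurons, or 79.4 and 79.8 CPM against 66.7 and 79.1 CPM. GRIN3A, whose subunit lowers calcium entry through the receptor, had 3071 and 2780 counts in CRISPRi neurons, against 55 and 2632 in control neurons, or 68.5 and 66.9 CPM against 58.2 and 66.9 CPM. For both genes the 3 deep libraries lay close together, and control replicate 1 was the lowest. Together GRIN2D and GRIN3A held 70.2% and 72.2% of the family's counts, which are not corrected for length, in CRISPRi neurons, against 71.1% and 69.4% in control neurons.

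GRIN2B, the subunit that prevails in the young forebrain, had 1179 and 1052 counts in CRISPRi neurons, against 26 and 1276 in control neurons. Its level was 26.3 and 25.3 CPM in CRISPRi neurons, against 27.5 and 32.4 CPM in control neurons. Both CRISPRi libraries lay below both controls, as they did for 16.5% of all tested genes. GRIN2A, the subunit of mature synapses with fast decay, had 888 and 726 counts in CRISPRi neurons, against 11 and 715 in control neurons, or 19.8 and 17.5 CPM against 11.6 and 18.2 CPM. Its groups overlapped, with control replicate 1 the lowest of all.

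GRIN1, the subunit that every NMDA receptor needs, had 711 and 530 counts in CRISPRi neurons, against 11 and 509 in control neurons, or 15.9 and 12.8 CPM against 11.6 and 12.9 CPM. CRISPRi replicate 1 was the highest and the other 3 libraries lay close together, so the groups overlapped. The row of LRRC26, an auxiliary potassium channel subunit gene on the opposite strand, begins beside the end of GRIN1, and exons of the pair overlap in GENCODE. LRRC26 had 16.1 and 14.7 CPM in CRISPRi neurons, against 22.2 and 17.7 CPM in control neurons, highest in the library where GRIN1 was lowest. Of the 3677 stretches of 75 bases in the GRIN1 transcript, 0 occurred in a transcript of another gene on either strand. Without a stated strand setting, reads from where exons of the pair overlap cannot be told apart. Summed, the pair reached 32.0 and 27.5 CPM in CRISPRi neurons, against 33.9 and 30.6 CPM in control neurons, groups that overlap.

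GRIN2C and GRIN3B were at the edge of detection. GRIN2C, best known from cerebellar granule cells, had 18 and 21 counts in CRISPRi neurons, against 0 and 15 in control neurons, or 0.401 and 0.505 CPM against 0 and 0.381 CPM. GRIN3B, best known from motor neurons, had 18 and 24 counts in CRISPRi neurons, against 0 and 13 in control neurons, or 0.401 and 0.577 CPM against 0 and 0.331 CPM. A count of 0 in control replicate 1 allows up to 3.17 CPM (3 counts), more than any library showed, so that library says nothing about either gene. The end of GRIN3B also overlaps TMEM259 on the other strand, which had 119 and 116 CPM in CRISPRi neurons, against 139 and 124 CPM in control neurons. TMEM259 holds 11 of the 3207 stretches of 75 bases in the GRIN3B transcript (0.343%).

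**Figure D1:**
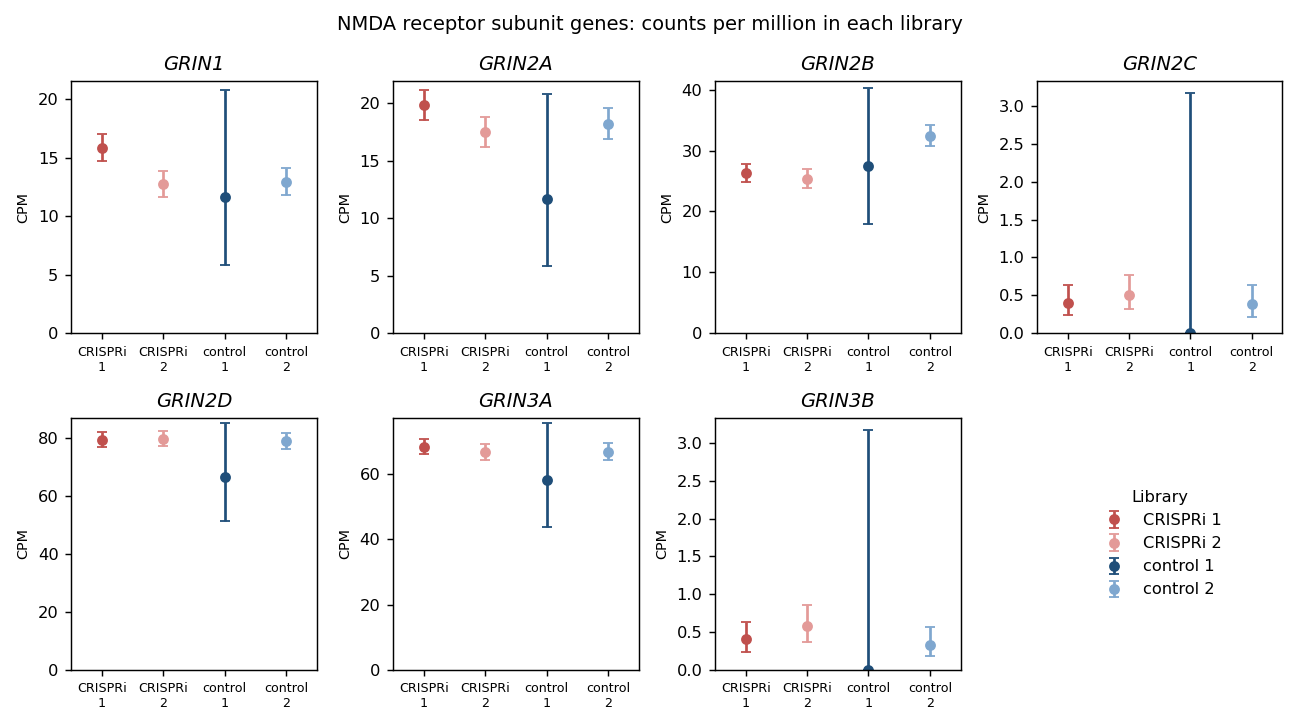
CPM of each NMDA receptor subunit gene in the 4 libraries, each panel with its own axis from 0; points are libraries and bars are exact Poisson 95% intervals of the counts (counting error only; for a count of 0 the bar ends at 3 counts). The bar of control replicate 1 spans 51.2 to 85.3 CPM for GRIN2D and holds the values of the other 3 libraries in every panel; GRIN2B is highest in control replicate 2 at 32.4 CPM.

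To order the genes by level, the values were set per length. Per kilobase of coding sequence, GRIN3A was at 20.2 ± 0.338 CPM in CRISPRi neurons, against 18.7 ± 1.85 CPM in control neurons (mean ± SD, n = 2 each), and GRIN2D at 19.9 ± 0.0698 CPM in CRISPRi neurons, against 18.2 ± 2.19 CPM in control neurons (mean ± SD, n = 2 each). GRIN3A ranked above GRIN2D in all 4 libraries on this scale, but the step between their means was smaller than either SD in control neurons. In CRISPRi neurons the step was larger than either SD. GRIN2B followed at 5.8 ± 0.156 CPM per coding kilobase in CRISPRi neurons, against 6.73 ± 0.784 in control neurons (mean ± SD, n = 2 each), then GRIN1 at 5.06 ± 0.776 in CRISPRi neurons, against 4.34 ± 0.326 in control neurons. GRIN2A was at 4.24 ± 0.376 in CRISPRi neurons, against 3.4 ± 1.05 in control neurons (mean ± SD, n = 2 each). On this scale GRIN2B, GRIN1 and GRIN2A stood in that order in all 4 libraries, which the FPKM below change. The step from GRIN2B to GRIN1 in CRISPRi neurons was smaller than the SD of GRIN1. That from GRIN1 to GRIN2A in control neurons was smaller than the SD of GRIN2A. GRIN2C and GRIN3B were at 0.123 ± 0.0199 and 0.156 ± 0.0398 CPM per coding kilobase in CRISPRi neurons, with 1 of the control libraries of each at 0.

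GRIN1, the subunit that all receptors share, was set against its partners, with the doubt about reads of the LRRC26 overlap above. Per coding kilobase, the 6 GRIN2 and GRIN3 genes summed to 9.09 and 11.1 times GRIN1 in CRISPRi neurons, against 10.4 and 11.2 times in control neurons. On the authors' deposited FPKM, which are per kilobase of transcript, the multiple was 6.71 and 8.16 in CRISPRi neurons, against 8.29 and 8.15 in control neurons. In each library, then, GRIN1 mRNA was below the summed mRNA of its partners on both scales. Bulk RNA does not show which subunits met in 1 cell or how much protein was made.

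The choice of length turned the order of GRIN2B and GRIN2A in 3 of the 4 libraries, control replicate 1 being the exception. By counts per coding kilobase GRIN2B made up 10.4% to 13.2% of the family and GRIN2A 5.64% to 7.97% over the 4 libraries. By the deposited FPKM GRIN2B made up 2.9% to 3.79% and GRIN2A 3.26% to 4.61%. GRIN1, below GRIN2B per coding kilobase, made up 10.8% to 13.0% by FPKM, above both in all 4 libraries. The count and FPKM of GRIN2B in CRISPRi replicate 1 imply a length of 31378 bases, close to the whole transcript, so the FPKM divide by the long untranslated part. How much of that part these neurons transcribe was not tested. GRIN2D and GRIN3A were the top pair in all 4 libraries on both scales, with GRIN3A first per coding kilobase and GRIN2D first by FPKM.

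**Figure D2:**
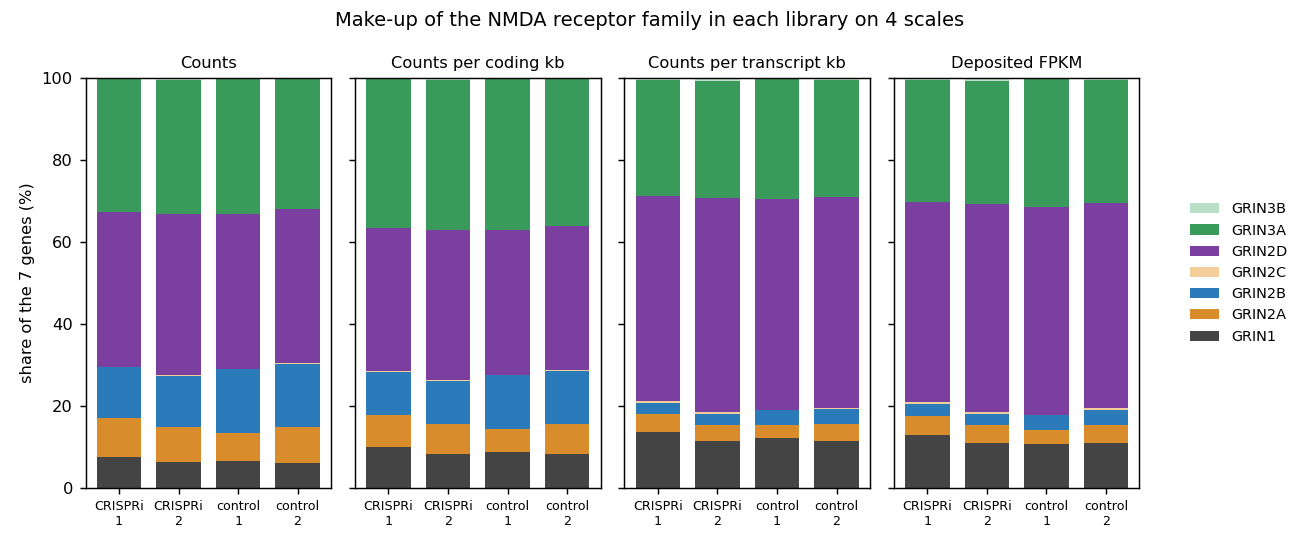
Share (%) of each gene in the sum of the 7 NMDA receptor genes, per library (CRISPRi left, control right), on 4 scales from left to right. GRIN2D and GRIN3A fill most of each bar; GRIN2B shrinks from 12.4% to 15.7% of counts to 2.9% to 3.79% of FPKM, and GRIN2C and GRIN3B are barely visible.

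The balance of early to late subunits was then compared, as a share within each library that needs no scaling between libraries. The size of such a share of counts depends on gene length, so it is also given per kilobase. GRIN2B made up 57.0% and 59.2% of GRIN2A plus GRIN2B counts in CRISPRi neurons, against 70.3% and 64.1% in control neurons. The exact (Clopper-Pearson) 95% intervals, which cover counting error only, were 54.9% to 59.2% and 56.8% to 61.5% in CRISPRi neurons. They were 53.0% to 84.1% in control replicate 1, which held 37 counts of both genes, and 61.9% to 66.2% in control replicate 2. The intervals of the CRISPRi libraries lay below that of control replicate 2 and inside that of control replicate 1.

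The mean GRIN2B share was 58.1 ± 1.51% in CRISPRi neurons, against 67.2 ± 4.37% in control neurons (SD, n = 2 each), a difference of -9.08 percentage points. An exact two-sided permutation test gave p = 0.33, the smallest that 2 libraries against 2 can give, so the test cannot tell the groups apart here. Without control replicate 1 the difference was -5.99 percentage points, and without control replicate 2 it was -12.2. Per kilobase of transcript the share itself was 39.8 ± 1.48% in CRISPRi neurons, against 49.4 ± 4.96% in control neurons (SD, n = 2 each), so that GRIN2A was then the larger of the pair in 3 of the 4 libraries, with a like difference of -9.66 percentage points.

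Over all regulated subunits the balance lay far on the early side. GRIN2B, GRIN2D and GRIN3A held 89.6% and 90.5% of early plus late counts in CRISPRi neurons, against 92.9% and 90.6% in control neurons, GRIN2A and GRIN2C being the late genes. The means were 90.1 ± 0.66% in CRISPRi neurons, against 91.7 ± 1.64% in control neurons (SD, n = 2 each), a difference of -1.67 percentage points, about as large as the control SD, with an exact permutation p = 0.33. It was -0.504 percentage points without control replicate 1 and -2.83 without control replicate 2. Per kilobase of transcript the share was 94.8 ± 0.323% in CRISPRi neurons, against 95.7 ± 1.03% in control neurons (SD, n = 2 each). The early genes thus outnumbered the late ones on each of these scales, mainly through GRIN2D and GRIN3A.

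**Figure D3:**
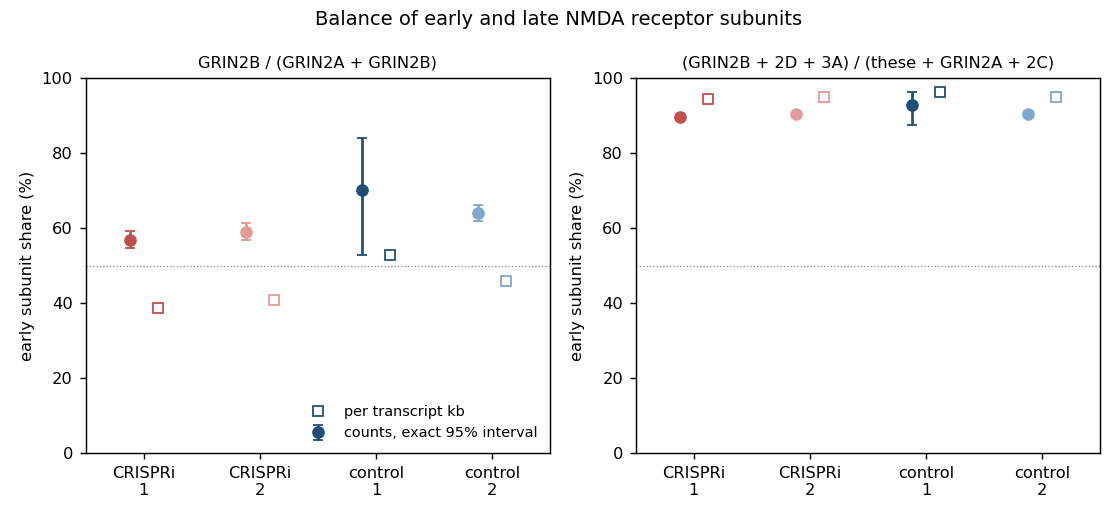
Early subunit share (%) in each library, CRISPRi left and control right: GRIN2B of GRIN2A plus GRIN2B (left panel) and GRIN2B, GRIN2D and GRIN3A of these plus GRIN2A and GRIN2C (right panel). Filled points are shares of counts with exact 95% intervals (where not visible, smaller than the point), open squares are shares per transcript kilobase, and the dotted line is 50%; the left panel crosses that line with the scale, from 57.0% to 38.7% in CRISPRi replicate 1, and the right panel does not.

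In the comparison of CRISPRi with control, 0 of the 7 genes passed edgeR's quasi-likelihood test at a Benjamini-Hochberg adjusted p of 0.05, where 0.0255% of all 15708 tested genes passed. None of the 7 had an unadjusted p under 0.05 by edgeR with all 4 libraries, as 151 of all 15708 tested genes did. DESeq2 and limma-voom also called 0, DESeq2 giving no adjusted p for GRIN2C and GRIN3B. All 7 passed the filter on low counts, GRIN2C and GRIN3B through the 3 deep libraries of both groups. The median log2 fold change of the 7 was 0.15, with 6 positive and 1 negative, beside a median of 0.01 over all tested genes. Without control replicate 1 the median of the 7 was 0.04, beside 0.00 over all tested genes.

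GRIN2B was the 1 member with a negative log2 fold change, -0.27 (SE 0.12, 95% interval -0.57 to 0.04), and the smallest p of the family (edgeR adjusted p = 1). It averaged 25.8 ± 0.694 CPM in CRISPRi neurons, against 30.0 ± 3.49 CPM in control neurons (SD, n = 2 each), a difference slightly larger than the SD of the controls. The log2 fold change was -0.32 without control replicate 1 (edgeR unadjusted p = 0.00271, adjusted p = 0.268) and -0.06 without control replicate 2, the library in which GRIN2B was highest. limma-voom gave it -0.31 with an unadjusted p of 0.0143 and an adjusted p of 0.998.

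GRIN2D had a log2 fold change of 0.08 (95% interval -0.15 to 0.32) and GRIN3A one of 0.08 (-0.15 to 0.31). Without control replicate 1 both were at 0.02. GRIN1 was at 0.18 (-0.28 to 0.64), at 0.15 without control replicate 1 and at 0.05 without CRISPRi replicate 1. GRIN2A was at 0.15 (-0.32 to 0.62), and at 0.04 without control replicate 1 or 0.71 without control replicate 2. That value of 0.71 lay above the interval of GRIN2A. For GRIN2D the test raised p to a Poisson bound that its interval does not include. With all 4 libraries, the interval of these 4 genes and of GRIN2B excluded a halving and a doubling, a log2 change of 1 either way.

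GRIN2C, at 0.34 (-1.19 to 1.87), and GRIN3B, at 0.65 (-0.93 to 2.23), were too sparse for that; without control replicate 1 they were at 0.25 and 0.56. The CPM of the groups did not overlap for GRIN2C, GRIN2D and GRIN3B, higher in CRISPRi neurons, as for 17.8% of all tested genes. They did not overlap for GRIN2B, lower in CRISPRi neurons, as for 16.5% of all tested genes. For GRIN2C and GRIN3B this rests on the 0 count of control replicate 1.

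Control replicate 1 was the lowest library for 4 of the 5 well-counted members (at least 100 counts in each deep library), GRIN2B being the exception, and for 46.1% of all genes of that depth. The raised dividing-cell markers of that library move with these low values, and their part in the result was not tested. The exact Poisson interval of control replicate 1 held the CPM of the other 3 libraries for each of the 7 genes, so its own values were not separable from theirs at its depth.

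**Figure D4:**
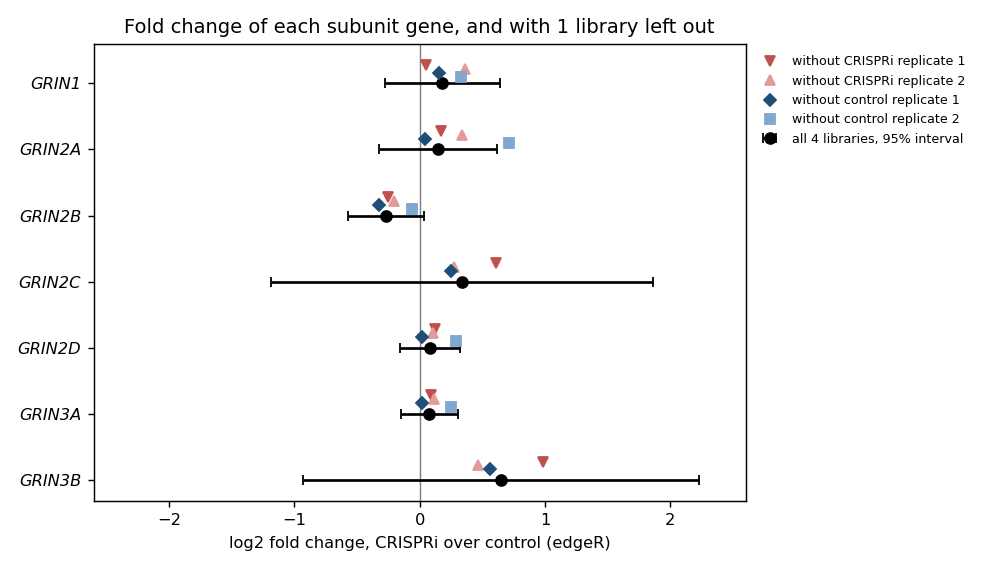
Log2 fold change (CRISPRi over control, edgeR) of each NMDA receptor gene with its 95% interval (black) and the value with 1 library left out (coloured; values of GRIN2C and GRIN3B without control replicate 2 lie off the axis). All 7 intervals include 0; GRIN2B, at -0.27, is the only one left of 0.

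GRIN2D, taken for its highest mean CPM of the family (not corrected for length), was set against other genes. Its pattern over the 4 libraries (log2 CPM centred on the gene's mean) was most like those of WDR45, ZNF513, RUFY3, TNPO2 and FBXW11, with root mean square differences of 0.00415 to 0.00667 among 13762 tested genes with a mean of at least 1 CPM. These patterns are flat in the deep libraries and lower in control replicate 1, so likeness over 4 libraries is a weak description. GRIN3A came at rank 230 of these genes, and GRIN1, GRIN2B and GRIN2A at ranks 4677, 6523 and 7049.

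Genes around the receptor were described by 6 lists of 106 genes in all. With all 4 libraries, 0 of the 100 tested members passed edgeR's test, nor did any pass DESeq2 or limma-voom. By edgeR, 2 of the 100 had an unadjusted p under 0.05, as did 151 of all 15708 tested genes. Values given below without control replicate 2 rest on control replicate 1 as the only control, the shallow library with raised dividing-cell markers. Of the 18 scaffold and anchoring genes, all tested, the median log2 fold change was 0.02. DLG4 encodes PSD-95, the scaffold that anchors the receptor. It was at 267 and 273 CPM in CRISPRi neurons, against 392 and 278 CPM in control neurons. Control replicate 1 alone was high (log2 fold change -0.26, then -0.03 without that library and -0.51 without control replicate 2). NETO1, an auxiliary protein of NMDA and kainate receptors, was at 10.97 and 12.2 CPM in CRISPRi neurons, against 6.35 and 9.89 CPM in control neurons (0.33). IQGAP1, a scaffold common in dividing cells, was at 8.63 and 9.6 CPM in CRISPRi neurons, against 45.5 and 10.5 CPM in control neurons. Its log2 fold change was -1.02, then -0.20 without control replicate 1 and -2.29 without control replicate 2. It was high in the library with high dividing-cell markers, whose part in this was not tested.

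Signalling genes behind the receptor had a median of 0.03 over 22 tested of 23. CAMK2B, a subunit of the kinase that binds GluN2B, was at 75.6 and 73.9 CPM in CRISPRi neurons, against 79.4 and 85.0 CPM in control neurons (-0.15). These groups did not overlap, as for 16.5% of all tested genes in this direction. CAMK2A, the subunit that leads in the mature forebrain, was at only 5.8 and 4.88 CPM in CRISPRi neurons, against 9.52 and 5.59 CPM in control neurons. The calcineurin gene PPP3CB (0.12) and the kinase gene PRKCB (0.16) were lowest in control replicate 1, at 133 and 130 CPM, and their log2 fold changes were 0.06 and 0.03 without it. Without control replicate 2, PRKCB was at 0.42.

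Trafficking genes had a median of -0.02 over 16 tested. LIN7A, of the complex that links the receptor to its motor in mouse neurons, was at 115 and 114 CPM in CRISPRi neurons, against 84.7 and 109 CPM in control neurons (0.19). KIF1B (0.16) and the adaptor GIPC1 (-0.17) did not pass with all 4 libraries either. Without control replicate 1, LIN7A was at 0.08 and KIF1B at 0.07. Without control replicate 2, LIN7A was at 0.47 and KIF1B at 0.26. KIF17, the motor that carries GluN2B in mouse neurons, was at 1.68 to 3.17 CPM in all libraries.

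The list of supply and removal of glutamate and co-agonist held the gene with the smallest unadjusted p of the 6 lists, SLC1A2. This gene, for a glutamate transporter best known from astrocytes, was at 174 and 173 CPM in CRISPRi neurons, against 140 and 89 CPM in control neurons, a log2 fold change of 0.74 (SE 0.19, unadjusted p = 0.0106, edgeR adjusted p = 1). The part of astrocytes in this was not tested. For SLC1A2 both CRISPRi libraries were above both controls, as for 17.8% of all tested genes, and the lowest value lay in control replicate 2. It passed with the replicate number as a block (0.70) and without control replicate 1 (0.97, adjusted p = 0.000481), and did not pass without control replicate 2 (0.34). Each of these drops leaves a lone control library, which is assumed to vary like the CRISPRi libraries, and the one left without control replicate 1 is that with the lowest SLC1A2. SLC17A6, which loads glutamate into vesicles, was at 162 and 157 CPM in CRISPRi neurons, against 148 and 145 CPM in control neurons (0.14). PHGDH, the first enzyme of serine synthesis, was at 68.1 and 72.2 CPM in CRISPRi neurons, against 122 and 77.2 CPM in control neurons. It was high in control replicate 1. Its log2 fold change was -0.35, then -0.13 without that library and -0.76 without control replicate 2. SRR, which makes D-serine, was at 23.9 and 23.1 CPM in CRISPRi neurons, against 20.1 and 25.5 CPM in control neurons. The median of the 16 tested of 20 was 0.01.

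Regulators linked to the change from early to late subunits had a median of -0.10 over 17 tested of 18. REST, the repressor that lowers Grin2b in the rat hippocampus after birth, was at 3.48 and 4.19 CPM in CRISPRi neurons, against 8.47 and 3.69 CPM in control neurons. MEF2C, a neuronal transcription factor, was at 28.7 and 26.9 CPM in CRISPRi neurons, against 38.1 and 33.8 CPM in control neurons (-0.31, unadjusted p = 0.0344, edgeR adjusted p = 1). Its groups did not overlap, lower in CRISPRi neurons, as for 16.5% of all tested genes. DNMT1 (-0.21) and HDAC1 (-1.79) were high in control replicate 1, where HDAC1 was at 47.6 CPM against 5.06 to 5.65 CPM in the other 3 libraries. Without control replicate 2 they were at -0.48 and -3.19. Without control replicate 1 they were at -0.08 and -0.14, and the median of the list was 0.00. The activity-dependent factor NPAS4 had 0 counts in every library.

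Of the 11 other ionotropic glutamate receptor genes, all tested, the median was 0.11 and 9 were positive. The AMPA receptor genes GRIA4 (0.14) and GRIA2 (-0.20) and the kainate receptor gene GRIK1 (0.26) had the smallest p. Without control replicate 1 they were at 0.08, -0.12 and 0.16, and the median of the list was 0.00. GRIA2, the subunit that closes AMPA receptors to calcium, was at 9.95 and 10.5 CPM in CRISPRi neurons, against 14.8 and 11.1 CPM in control neurons. GRIK1 was at 20.3 and 19.4 CPM in CRISPRi neurons, against 11.6 and 17.8 CPM in control neurons, lowest in control replicate 1.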

How the data were processed

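The authors deposited, for each library, 1 whole-number count and 1 FPKM value per gene row. The submitters' processing notes name hg38, edgeR and limma. Not given in the sources used here are the aligner, the counting tool, the strand setting, the FPKM formula and the guide used for each library. Labels call the replicates biologically independent. Counts were summed per symbol and tested on the whole table with edgeR's robust quasi-likelihood test (version 4.0.16, R 4.3.3), after filterByExpr and TMM scaling, with group as the only term and Benjamini-Hochberg adjustment; the F statistic gave the standard errors and intervals. For GRIN2D edgeR raised p to a Poisson bound. FPKM served only for levels between genes; transcript and coding lengths came from GENCODE release 29 (GRCh38). DESeq2 1.42.0, limma-voom 3.58.1, other scalings and filters, chromosome rows only, a replicate block and each library left out were tried. Named genes outside the family are the 3 with the smallest p per list, some others by role, and the 5 most like GRIN2D. Members and lists were chosen with earlier results of these data known. Pore stretches of 2 members are not reported here. Intervals on counts and shares cover counting error only.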

Additional observations from a re-analysis of the deposited data

How the results depend on the processing

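The 0 calls among the 7 NMDA receptor genes held under every alternative run. GRIN2C and GRIN3B could not be called under a filter of 1 CPM in 2 libraries, which left them untested. Nor could they be called by DESeq2, which gave them no adjusted p. None of the log2 fold changes fitted turned sign. With a library left out they ran from -0.32 to -0.06 for GRIN2B, 0.04 to 0.71 for GRIN2A and 0.05 to 0.36 for GRIN1. For GRIN2D they ran from 0.02 to 0.29 and for GRIN3A from 0.02 to 0.25. Values of 6.73 for GRIN2C and 6.84 for GRIN3B without control replicate 2 are fitted against 0 counts and say nothing of size. The difference in GRIN2B share ran from -12.2 to -5.99 percentage points with a library left out, and that of all early subunits from -2.83 to -0.504. Counts pooled over each group gave -6.18 and -0.573, and leaving out GRIN3A gave -2.69 for all early subunits; these and the length scalings moved neither by more than the larger (control) SD, though several, pooling among them, moved a difference by more than the CRISPRi SD. Over all genes, 0 were called higher, against 1 by DESeq2, 17 under the replicate block and between 2 and 580 when a library was dropped. Those called lower numbered 4, against 11 by DESeq2, 2 by limma-voom, 25 under the replicate block and between 15 and 798 when a library was dropped. Calls in the 6 lists (0) came to 1 (SLC1A2) under the replicate block and to between 0 and 15 when a library was dropped, 15 being without control replicate 2; the lone control left by either drop is assumed to vary like CRISPRi. The cause was not tested. Of 298 values of 25 genes (the 7 members and the 3 of each list with the smallest p; no other named gene was followed), 288 kept direction and side of the threshold and 10 gained a call. Nothing in the labels pairs the replicate numbers. Deviations of same-numbered libraries correlated at -0.03 over genes, but counting noise in control replicate 1 could hide a pairing, so this value cannot decide it. The block made 0 calls among the 7 genes. Depth of control replicate 1 limits every member, since 3 counts there equal 3.17 CPM.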
